A study of Mus musculus with 8 samples.

Results

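The small subunit processome is the set of proteins that assembles on the nascent ribosomal RNA precursor and starts to build the small, 40S ribosomal subunit. The set described here held 39 genes, each matched by its symbol among the 23845 symbols of the tables. They comprised proteins of the U3 small nucleolar RNP, the UTP-A, UTP-B and MPP10 modules, further processome factors, helicases, and the late factors that finish 18S ribosomal RNA. Footprints on these genes were measured by Ribo-seq, which sequences mRNA fragments protected by ribosomes, in METTL5 knockout (KO) and wild-type (WT) mouse embryonic stem cells (mESC). There were 2 KO and 2 WT Ribo-seq libraries, and 2 KO and 2 WT RNA-seq libraries, from cells at passages 5 to 10. METTL5 is the enzyme that methylates an adenosine of 18S ribosomal RNA, and the series compared mRNA and footprints with and without it. The labels give no strain, sex or number of KO clones, so p-values measure only the spread between these libraries, which may be technical.

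Ribosomal RNA is transcribed by RNA polymerase I as one long precursor. The U3 RNP pairs with this precursor, the UTP modules fold and hold it, and cleavages then release the small-subunit part. That particle leaves the nucleus with late factors such as NOB1, PNO1 and the RIO kinases, and NOB1 makes the last cut that yields mature 18S. Embryonic stem cells divide fast and make many ribosomes, so these factors are in steady use there. A footprint count follows both the amount of an mRNA and the ribosomes on each copy, and fewer cells of a type cannot be told apart from less RNA per cell in bulk material.

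The footprint tables held 8401463 to 11487964 expected counts per library, and all 39 genes had at least 10 counts in each. Mettl5, on chromosome 2, had 4.08 and 4.79 CPM (counts scaled to the library total) in the KO libraries, against 41.2 and 45.9 CPM in the WT libraries, in the direction that the KO label implies (log2 fold change -3.27, SE 0.22, edgeR adjusted p = 0.00131). The ribosomal RNA precursor entry Rn45s took 10.6% and 15.2% of KO footprint counts, against 7.58% and 10.9% of WT counts. Of 10 pluripotency markers, 10 had footprints in all libraries, with summed levels of 7325 and 7150 CPM in KO and 5748 and 7446 CPM in WT, and 0 were called. Of 8 fibroblast markers, Lum was at 0 in all libraries and Dcn had 1 to 4 counts. The fibroblast sum was 302 and 404 CPM in KO, against 122 and 64.4 CPM in WT. Col3a1 passed the test, on 33 and 102 counts in KO and only 7 and 2 counts in WT. Most of the fibroblast sum was Col1a1 and Col1a2, higher in KO without passing the test (edgeR adjusted p = 0.132 and 0.144). Thy1 of the same list was lower in KO (14.8 and 16.5 CPM, against 20.2 and 25.1 CPM in WT), also without passing. Of 7 primitive endoderm markers, none was at 0 and Dab2 and Cubn fell. The sum over all 7 was 290 and 373 CPM in KO, against 537 and 665 CPM in WT. Lama1 made up most of it, at 256 and 343 CPM in KO against 429 and 498 CPM in WT. It did not pass the test (edgeR adjusted p = 0.146). The part of these other cell types in the values below was not tested.

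Together the 39 genes took a smaller share of footprints in the KO. Their summed level was 5271 and 5013 CPM in the KO libraries, against 6801 and 6002 CPM in the WT libraries, so both KO sums lay below both WT sums. The differences of single genes were small: 36 of the 39 had a log2 fold change of KO over WT below 0, with a median of -0.28. Over all 12315 genes tested, 49.2% were below 0 and the median was 0.01. One gene, Bms1, fell in the edgeR quasi-likelihood test at an adjusted p below 0.05, that is 1 of 39, where 0.617% of all genes were called lower. None was called higher, where 1.83% of all genes were. In that direction none had an unadjusted p below 0.05 in edgeR or in DESeq2, while 1313 of the 12315 genes did in edgeR. DESeq2 called 4 lower (Bms1, Utp6, Ddx47 and Nob1), against a background of 0.727%, and edgeR with no filter on low counts called 6 lower, against 2.33%. At an unadjusted p below 0.05, 12 of 39 were lower, against a background of 8.72%. In 26 of 39 genes both KO libraries lay below both WT libraries, against a background of 25.5%, and in 1 gene, Imp3, both lay above, against 24.3%. The members were not chosen by these values, but earlier results of these data were known when they were listed.

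**Figure D1:**
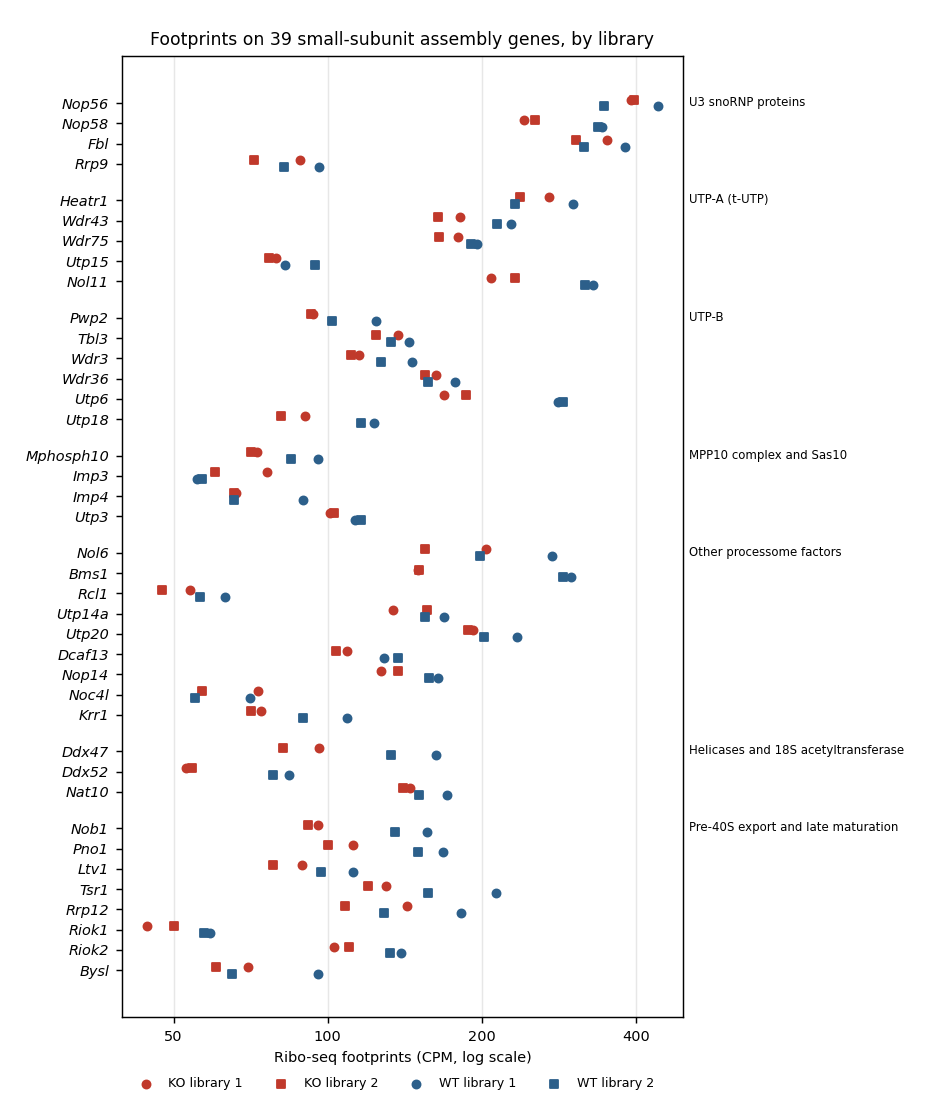
Ribo-seq level of each of the 39 genes in CPM on a log axis, with 1 point per library (2 KO and 2 WT), grouped by role. Red KO points lie left of blue WT points in 26 genes, with the widest gap at Bms1, and right of them in Imp3.

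The larger differences lay on 3 chromosomes. Footprints of chromosomes 6, 8 and 11 were lower in the KO as a whole, with median log2 fold changes of -0.38 over 565 genes, -0.22 over 676 genes and -0.25 over 1043 genes. The medians of the other autosomes and of X lay between -0.02 and 0.10. Of the 39 genes, 9 lie on these 3 chromosomes: Bms1 and Ddx47 on 6, Nob1 on 8, and Nol11, Utp6, Utp18, Ddx52, Pno1 and Tsr1 on 11. These 9 were also the 9 with the smallest p. Their log2 fold changes ran from -0.95 to -0.47 with a median of -0.58, while all 2284 tested genes of the 3 chromosomes had a median of -0.27. In all 9 genes both KO libraries lay below both WT libraries, against 50.6% of the genes of these chromosomes.

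The 30 genes elsewhere had smaller values in the same direction. Of these 30, 27 were below 0, with a median of -0.23 and a range from -0.44 to 0.29, while 43.1% of all 10013 tested genes outside the 3 chromosomes, these 30 included, were below 0 and their median was 0.06. In 17 of the 30 both KO libraries lay below both WT libraries, against 19.8% of the genes outside the 3 chromosomes. Neither edgeR in the reported fit nor DESeq2 called any of the 30. In edgeR 3 of the 30, Nop58, Wdr43 and Krr1, were lower at an unadjusted p below 0.05. The other 9 of the 12 members lower at that level were the 9 on chromosomes 6, 8 and 11. Of all 12315 genes tested, those of the 3 chromosomes included, 8.72% were lower at that level. The share outside the 3 chromosomes alone was not taken. With the median of each chromosome taken out, the 9 genes had a median of -0.33 (range -0.57 to -0.22) and the 30 had a median of -0.28 (range -0.52 to 0.25). In that fit 38 of the 39 genes were below 0 and none was called, the smallest adjusted p being 0.102, that of Bms1. The chromosome medians were negative in both replicate numbers, at -0.34 and -0.41 for chromosome 6, -0.17 and -0.24 for 8, and -0.22 and -0.27 for 11. In the RNA-seq tables the same 3 medians were -0.12 over 115 genes, -0.14 over 100 and -0.04 over 168, while the other autosomes and X ran from -0.11 (chromosome 13) to 0.14 (chromosome 18).

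**Figure D2:**
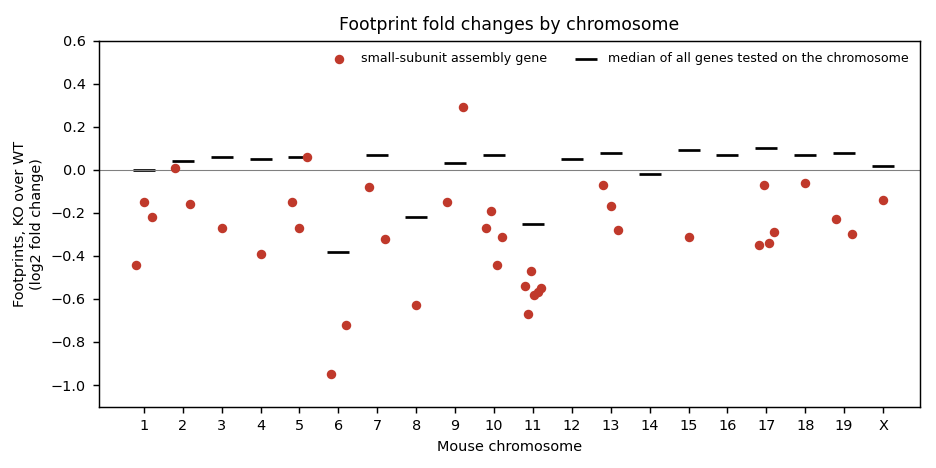
Log2 fold change of footprints, KO over WT, for each of the 39 genes (red points) by chromosome, with the median of all tested genes of that chromosome (black bars). The bars of chromosomes 6, 8 and 11 lie at -0.38, -0.22 and -0.25, and the 9 genes on them lie below their bars.

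The proximal promoters of 3 of these 9 genes are shown, those whose 250 bases before the RefSeq start overlap no annotated exon. Each is written 5′ to 3′ on the strand of the gene (RefSeq, GRCm38.p6), with matches to the searched motifs in capitals. Ddx47 (plus strand, chr6:135011362-135011611) and Pno1 (minus strand, chr11:17211590-17211839) each hold 1 CCAAT, and Nol11 (minus strand, chr11:107189382-107189631) holds 1 E-box, CACGTG, the core recognised by MYC and related factors.
Ddx47: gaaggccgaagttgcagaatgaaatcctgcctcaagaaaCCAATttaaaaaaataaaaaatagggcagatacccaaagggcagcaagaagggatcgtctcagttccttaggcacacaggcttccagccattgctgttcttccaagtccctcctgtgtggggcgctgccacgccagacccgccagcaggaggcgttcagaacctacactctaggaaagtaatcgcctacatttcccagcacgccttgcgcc
Pno1: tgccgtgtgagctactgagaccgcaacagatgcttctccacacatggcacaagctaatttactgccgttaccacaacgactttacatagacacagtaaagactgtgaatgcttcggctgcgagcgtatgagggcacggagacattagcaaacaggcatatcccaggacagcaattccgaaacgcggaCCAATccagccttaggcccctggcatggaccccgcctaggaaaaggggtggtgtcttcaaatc
Nol11: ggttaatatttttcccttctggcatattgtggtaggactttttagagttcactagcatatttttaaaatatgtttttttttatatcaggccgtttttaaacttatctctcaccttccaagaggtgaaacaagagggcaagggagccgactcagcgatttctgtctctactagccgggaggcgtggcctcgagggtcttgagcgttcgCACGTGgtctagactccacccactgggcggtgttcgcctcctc
The table held a promoter for 32 of the 39 genes. On either strand, CACGTG was found in 3 of the 32 (Imp4, Nol11 and Utp18), a share of 9.38% beside 8.85% of the 9292 promoters of tested genes. CCAAT was found in 17, or 53.1%, beside 37.4%. CCGGAAG, an ETS factor core, was found in 7, or 21.9%, beside 14.3%, and CTCGCGA in 3, or 9.38%, beside 3.44%. These motifs share no letters that overlap in the 3 sequences shown, and a match describes letters only.

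The U3 RNP proteins open the pathway. Nop58, a scaffold of box C/D small nucleolar RNPs on chromosome 1, had 242 and 254 CPM in KO libraries, against 343 and 337 CPM in WT libraries. The groups did not overlap, but the difference did not pass the test (log2 fold change -0.44, SE 0.15, edgeR adjusted p = 0.158). Its paralogue and partner Nop56 had a log2 fold change of 0.01 (SE 0.17), with the KO libraries between the WT libraries. Rrp9, the protein that marks the U3 RNP among its relatives, had 88.2 and 71.7 CPM in KO, against 96.1 and 82.1 CPM in WT, with overlap (-0.15, SE 0.16, edgeR adjusted p = 0.676). Fbl, the fibrillarin methyltransferase, had a log2 fold change of -0.08. So in this group of 4, Nop58 alone had both KO libraries below both WT libraries, against a background of 25.5% of all genes tested.

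UTP-A, which binds the leading end of the precursor and is also linked to its transcription, had all 5 members below 0, with a median of -0.17, and edgeR and DESeq2 called 0 of them. Nol11 had 208 and 232 CPM in KO, against 330 and 318 CPM in WT. Every KO library was lower than every WT library (-0.54, SE 0.16, edgeR adjusted p = 0.112). Wdr43 had 181 and 164 CPM in KO, against 228 and 214 CPM in WT, again without overlap (-0.35, SE 0.14, edgeR adjusted p = 0.23). Utp15 (-0.17), Wdr75 (-0.15) and the large scaffold Heatr1 (-0.07) differed less. In 4 of the 5 genes both KO libraries lay below both WT libraries, against 25.5% of all genes tested.

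UTP-B, a second scaffold built largely of WD-repeat proteins, had all 6 members below 0, with a median of -0.27. Of these, edgeR called 0 in the reported fit and DESeq2 called Utp6. Utp6 (chromosome 11, 79933956 to 79962387, minus strand, GRCm38.p6) had 169 and 186 CPM in KO, against 281 and 288 CPM in WT. The gap between the groups was wide beside the spread within them (-0.67, SE 0.15, edgeR adjusted p = 0.0625). Utp18 had 90.4 and 81.1 CPM in KO, against 123 and 116 CPM in WT (-0.47, SE 0.15, edgeR adjusted p = 0.133). Pwp2 and Wdr3 had log2 fold changes of -0.27 each, Tbl3 of -0.07 and Wdr36 of -0.06. Utp6 and Utp18 are the 2 UTP-B genes on chromosome 11, and the 4 with smaller differences lie elsewhere. With chromosome medians removed the order changed. Utp6 was then at -0.42, Pwp2 at -0.34, Wdr3 at -0.33, Utp18 at -0.22, Tbl3 at -0.18 and Wdr36 at -0.13. In 4 of the 6 genes both KO libraries lay below both WT libraries, against 25.5% of all genes tested.

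The MPP10 complex, which helps U3 pair with the precursor, held the only gene of the 39 whose KO libraries both lay above WT. Over all genes tested, 24.3% had both KO libraries above both WT libraries. Imp3 had 76.1 and 60.3 CPM in KO, against 55.6 and 56.9 CPM in WT, without overlap, and did not pass the test (0.29, SE 0.17, edgeR adjusted p = 0.392). Mphosph10, the subunit that names the complex, had 72.7 and 70.8 CPM in KO, against 95.5 and 84.6 CPM in WT (-0.32, SE 0.15, edgeR adjusted p = 0.31). Imp4 (-0.22) and Utp3, the counterpart of yeast Sas10 (-0.15), had lower KO means. The partners Imp3 and Mphosph10 therefore differed from WT in opposite directions, a difference between genes that was not tested.

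**Figure D3:**
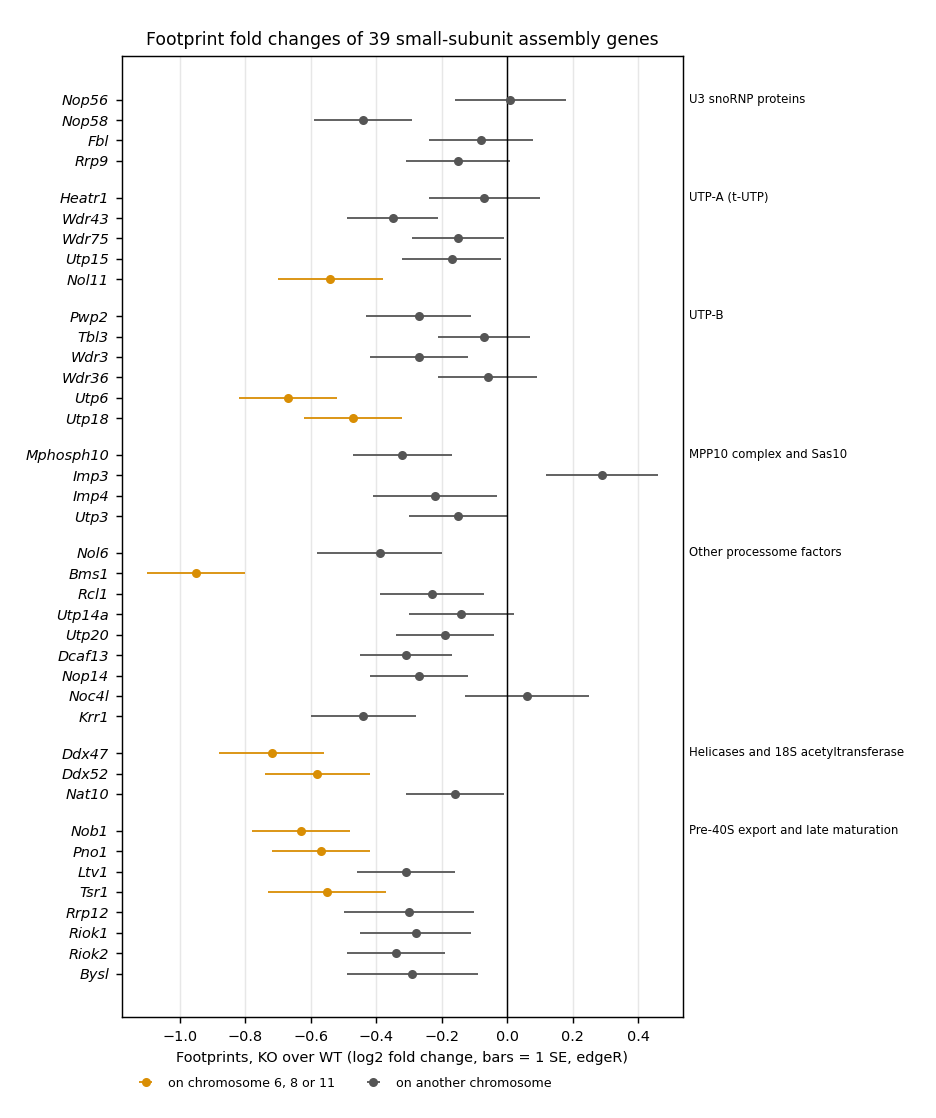
Log2 fold change of footprints, KO over WT, with bars of 1 SE from edgeR, for the 39 genes by role. Orange genes lie on chromosomes 6, 8 or 11, with values from -0.95 to -0.47, and grey genes elsewhere, with values from -0.44 to 0.29.

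Among the other processome factors, Bms1 fell to 0.518 of its WT level. Bms1 encodes a GTPase that is needed for an early cleavage, and its locus spans 118383381 to 118419802 of chromosome 6 (GRCm38.p6, minus strand). It had 150 and 151 CPM in KO libraries, against 299 and 288 CPM in WT libraries, or 151 ± 0.682 CPM in KO and 293 ± 7.89 CPM in WT (SD, n = 2 each). The KO libraries were alike and lay far below both WT libraries (log2 fold change -0.95, SE 0.15, edgeR adjusted p = 0.017). Without KO replicate 1 the adjusted p was 0.0726 (-0.90), and with chromosome medians removed it was 0.102 (-0.57). Of the 565 tested genes of chromosome 6, 7.43% had a lower fold change than Bms1.

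Rcl1, which binds BMS1 in yeast, had a log2 fold change of -0.23. Krr1, a KH-domain factor, had 73.9 and 70.7 CPM in KO, against 109 and 89.6 CPM in WT, without overlap (-0.44, SE 0.16, edgeR adjusted p = 0.181). Dcaf13, the counterpart of yeast Sof1, had 109 and 104 CPM in KO, against 129 and 137 CPM in WT, also without overlap (-0.31, SE 0.14, edgeR adjusted p = 0.282). Nol6 (-0.39), Nop14 (-0.27), Utp20 (-0.19) and Utp14a (-0.14) were below 0 as well. Noc4l, whose yeast counterpart pairs with Nop14, stood at 0.06. None of these 8 passed the test, and the groups overlapped for Nol6, Utp14a and Noc4l. With Bms1 counted, 6 of the 9 factors had both KO libraries below both WT libraries, against 25.5% of all genes tested.

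Helicases of the DEAD-box family remodel RNA within the particle, and both in the set had KO libraries below WT. Ddx47 (chromosome 6, 135011612 to 135023776, plus strand, GRCm38.p6) had 96.2 and 81.8 CPM in KO, against 163 and 133 CPM in WT (-0.72, SE 0.16, edgeR adjusted p = 0.0563). Ddx52 had 52.9 and 54.3 CPM in KO, against 83.9 and 78.2 CPM in WT (-0.58, SE 0.16, edgeR adjusted p = 0.096). Neither pair of groups overlapped, and neither gene passed the edgeR test, while DESeq2 called Ddx47, against a background of 0.727%. Both KO libraries lay below both WT libraries in 25.5% of all genes tested, and in 50.6% of those on chromosomes 6, 8 and 11. Ddx47 lies on chromosome 6 and Ddx52 on 11, and with chromosome medians removed they were at -0.34 and -0.33. Nat10, which acetylates cytidines of 18S, had a smaller difference (-0.16, SE 0.15), again without overlap.

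The late factors that travel with the pre-40S particle had all 8 members below 0, with a median of -0.32. Of these, edgeR called 0 in the reported fit and DESeq2 called Nob1. Nob1, the nuclease that frees the end of 18S, spans 107412489 to 107425038 of chromosome 8 (minus strand, GRCm38.p6). It had 95.5 and 91.7 CPM in KO, against 156 and 135 CPM in WT (-0.63, SE 0.15, edgeR adjusted p = 0.0686). Pno1, which sits beside NOB1 on the precursor, had 112 and 100 CPM in KO, against 168 and 150 CPM in WT (-0.57, SE 0.15, edgeR adjusted p = 0.083). Nob1 and Pno1 thus showed gaps of like size with no overlap of groups, on chromosomes 8 and 11. Both chromosomes had negative medians, and with chromosome medians removed the 2 genes were at -0.40 and -0.32. Of all tested genes of chromosomes 6, 8 and 11, 50.6% had both KO libraries below both WT libraries. Tsr1, a GTPase-like factor that blocks early joining of the large subunit in yeast, had 130 and 120 CPM in KO, against 213 and 157 CPM in WT (-0.55, SE 0.18, edgeR adjusted p = 0.142). Its WT libraries differed from each other more than its KO libraries did.

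The kinases Riok2 (-0.34) and Riok1 (-0.28), and Ltv1 (-0.31), which leaves the particle in the cytoplasm, had KO libraries below WT. Rrp12 (-0.30), an export factor, and Bysl (-0.29), the counterpart of yeast Enp1, overlapped between genotypes. Of the 8 late factors, 6 had both KO libraries below both WT libraries, against 25.5% of all genes tested.

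Libraries with the same replicate number in the labels also share a tag in their deposited names that may be a date, so differences were also taken within numbers, on log2(CPM + 0.5). For number 1 the KO library was below the WT library in 37 of 39 genes (median -0.35), and for number 2 in 34 of 39 (median -0.25). The medians over all genes tested were 0.04 and -0.06. In 34 genes the KO was lower in both numbers, that is 87.2% against a background of 36.6% of all genes tested. Bms1 differed by -0.99 and -0.93, Ddx47 by -0.76 and -0.70, Nob1 by -0.71 and -0.55, and Pno1 by -0.59 and -0.58. Tsr1 was less even, at -0.71 and -0.38, and Nop56 had opposite signs, -0.17 and 0.20. Within a genotype, library 2 minus library 1 had a median over the 39 genes of -0.06 in KO and -0.17 in WT. Over all genes tested these medians were -0.08 in KO and 0.01 in WT. Among the 39 genes, WT replicate 1 held the highest level of most. Without WT replicate 1 the median fold change was -0.16, and without WT replicate 2 it was -0.38.

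**Figure D4:**
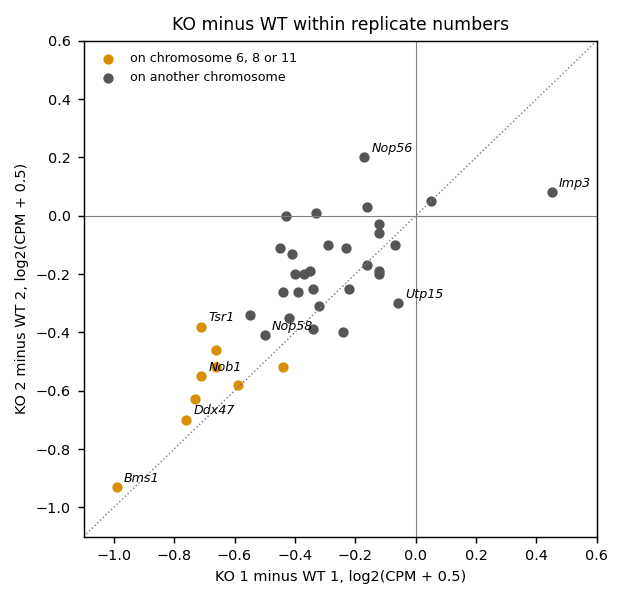
Difference of KO minus WT on log2(CPM + 0.5) within replicate number 1 (horizontal) and number 2 (vertical), with 1 point per gene and a dotted line of equality. In 34 of 39 genes both differences are below 0, Bms1 lies farthest out at -0.99 and -0.93, and Imp3 lies above 0 on both axes.

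Levels per transcript length were compared within modules by the deposited TPM, which divides by the length of the whole mRNA. Fbl was highest of all, at 452 ± 34.4 TPM in KO and 484 ± 54.6 TPM in WT (SD, n = 2 each). Nop56 followed at 330 ± 12.1 TPM in KO and 331 ± 50.9 TPM in WT, then Nop58 at 199 ± 11.4 TPM in KO and 274 ± 0.99 TPM in WT. The libraries of these neighbours in the order did not overlap in either genotype; the nearest were Nop56 at 295 TPM and Nop58 at 275 TPM in WT replicate 2. Rrp9 was lower still, at 82.6 ± 10 TPM in KO and 92.7 ± 8.8 TPM in WT.

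In UTP-B the highest level in WT was that of Utp6 (117 ± 3.94 TPM), above Wdr36 (87.7 ± 6.53 TPM) and Tbl3 (87.5 ± 3.62 TPM). In KO, Utp6 was at 72.3 ± 6.7 TPM, below Wdr36 at 83.1 ± 1.55 TPM and Tbl3 at 82 ± 3.75 TPM, and this change of order was not tested. Nob1 and Pno1 were close to each other in both genotypes, at 90.3 ± 0.339 and 108 ± 5.43 TPM in KO and 141 ± 12.5 and 163 ± 10.4 TPM in WT. Bms1 was at 55.3 ± 1.6 TPM in KO and 108 ± 1.17 TPM in WT, while its yeast partner's counterpart Rcl1 was at 44.5 ± 2.96 TPM in KO and 52.8 ± 3.25 TPM in WT. The TPM gap between Bms1 and Rcl1 was thus narrower in KO than in WT, which was not tested. Krr1 had the lowest mean TPM of the 39 genes, 22.8 ± 0.17 in KO and 31.4 ± 3.78 in WT. In WT this place did not hold in single libraries. Utp15 (31.7 TPM) and Riok1 (33.7 TPM) were lower than Krr1 (34.1 TPM) in WT replicate 1. Bysl was lower than Krr1 in WT replicate 2 (27.1 TPM, against 28.7 TPM).

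The RNA-seq tables were too shallow for most of these genes. All 39 together had 219 and 176 counts in the KO libraries, against 355 and 318 counts in the WT libraries. In KO libraries 18 and 14 of the genes were at 0, and in WT libraries 11 and 10, in totals of 152195 and 173389 counts for KO and 211353 and 219567 counts for WT. A count of 0 allows up to 19.7 and 17.3 CPM in the KO libraries and 14.2 and 13.7 CPM in the WT libraries, for counting error only. Bms1 had 1 and 0 counts in KO, against 4 and 7 counts in WT, and Nob1 had 5 and 1 counts in KO, against 2 and 3 counts in WT. Both KO counts of Bms1 lay below both WT counts, and those of Nob1 overlapped. Neither gene passed the filter on low counts, so edgeR did not test their mRNA in the reported fit.

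Krr1, Bysl, Riok2 and Utp6 passed the filter on low counts in RNA-seq, and none was called in either direction by edgeR (backgrounds of 2.68% lower and 3.69% higher). One, Bysl, had an unadjusted p below 0.05, and DESeq2 called 0 of 35 genes. Bysl had 32 and 32 counts in KO, against 83 and 80 counts in WT, without overlap (-1.03, SE 0.32, edgeR adjusted p = 0.0748). When genes under a mean count of 50 were left out, the edgeR adjusted p of Bysl was 0.0373. Krr1 had 92 and 67 counts in KO, against 108 and 92 counts in WT, with a log2 fold change of -0.02 (SE 0.31, edgeR adjusted p = 0.98) that changed sign under other settings. Riok2 had 25 and 19 counts in KO, against 37 and 55 counts in WT (-0.73, SE 0.37, edgeR adjusted p = 0.275). Utp6 had 9 and 7 counts in KO, against 29 and 6 counts in WT, so its fold change of -0.84 rested on WT replicate 1 and was 0.76 without it.

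Exons of Krr1 share 352 bases with Glipr1 on the other strand in GENCODE M21, those of Bysl share 361 with Ccnd3, and those of Riok2 share 362 with Gm26873. No source used here gives the strand setting, so reads of these partners cannot be told apart from those of the 3 genes. The same limit holds for the footprints of all 17 members whose exons overlap a gene on the other strand. The longest overlaps are those of Tbl3 with Noxo1 (2122 bases), Tsr1 with Srr (1240) and Wdr3 with Spag17 (820), and among the 9 genes of chromosomes 6, 8 and 11 Nol11 (437) and Pno1 (33) overlap as well. Utp6, Bms1, Ddx47 and Nob1 share none with a gene on the other strand.

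Translational efficiency, footprints relative to RNA-seq counts of the same gene, could be fitted for the same 4 genes, and none was called (backgrounds of 4.53% lower and 4.73% higher). None had an unadjusted p below 0.05 in edgeR, 1 did in DESeq2, and DESeq2 called 0. Log2 differences were 0.78 for Bysl (SE 0.36, edgeR adjusted p = 0.211), 0.44 for Riok2 (SE 0.38), 0.19 for Utp6 (SE 0.70) and -0.40 for Krr1 (SE 0.35). With SEs of 0.35 to 0.70, shifts of the size seen in footprints could not be resolved.

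Other genes of small-subunit assembly, listed beside the 39, had values of the same sign. Of 34 such genes, 28 were below 0, with a median of -0.20. In edgeR 0 were called, against a background of 0.617% lower. At an unadjusted p below 0.05, 7 were lower, against 8.72%, and 0 were higher. DESeq2 called 1 lower, against 0.727%. Aatf, a nucleolar processome protein on chromosome 11, had 83.3 and 108 CPM in KO, against 172 and 166 CPM in WT (-0.80, SE 0.18, edgeR adjusted p = 0.0559). Emg1, a methyltransferase of 18S on chromosome 6, had 100 and 84.2 CPM in KO, against 144 and 120 CPM in WT (-0.51, SE 0.16, edgeR adjusted p = 0.137). Cirh1a, the UTP-A subunit now named Utp4, on chromosome 8, had 163 and 152 CPM in KO, against 258 and 196 CPM in WT (-0.52, SE 0.17, edgeR adjusted p = 0.148). These 3 had the smallest p of the 34, and all lie on the chromosomes with negative medians. None overlapped between genotypes, which a choice by p favours. Of the 34, 18 had both KO libraries below both WT libraries, against 25.5% of all genes tested. Trmt112, the partner of METTL5, was at -0.02, and the 18S methyltransferase gene Wbscr22, now Bud23, at 0.05.

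Related lists are given for scale. Of 54 large-subunit assembly genes, 50 were below 0, with a median of -0.24. Of these, 1 fell in edgeR, 13 were lower at an unadjusted p below 0.05, and DESeq2 called 4 lower. The backgrounds over all genes tested were 0.617%, 8.72% and 0.727%, in that order. Of 15 genes of RNA polymerase I and its factors, 13 were below 0, 0 were called (2 lower at an unadjusted p below 0.05, 1 called by DESeq2), and the median was -0.23. The 33 proteins of the small subunit itself showed the other sign, with 7 below 0 and 26 above 0 and a median of 0.10. Of them 0 were called by edgeR or DESeq2. At an unadjusted p below 0.05 in edgeR 2 were higher, where 1313 of all 12315 genes tested were. Within replicate numbers their median was -0.02 and 0.24, so the sign differed between numbers. No test of the difference between lists was made.

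**Figure D5:**
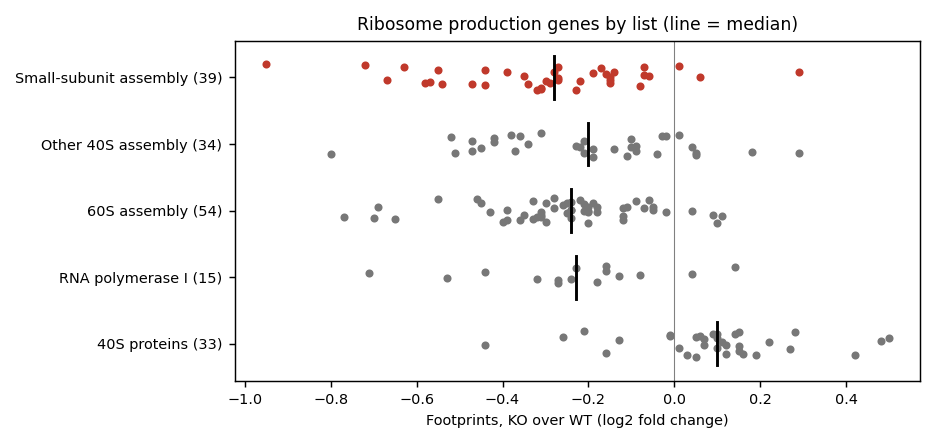
Log2 fold change of footprints, KO over WT, for each gene of 5 lists, with black lines at the medians of -0.28, -0.20, -0.24, -0.23 and 0.10 from top to bottom. The 4 assembly and transcription lists lie mostly left of 0 and the 40S proteins mostly right of it.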

How the data were processed

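Each library has 1 deposited table with expected counts, TPM and FPKM by gene symbol, as RSEM writes them per the file headers. The authors' FPKM values were not used. Bowtie2 2.3.4.3, RSEM and mm10 are named in the submitters' processing notes. How reads were trimmed and which strand was counted was not given in the sources used here. Expected counts were rounded for tests, and CPM used the library total. Each assay was fitted apart with edgeR 4.0.16 (TMM, filterByExpr, robust quasi-likelihood test, KO against WT, Benjamini-Hochberg over all genes tested), and translational efficiency as the interaction over 8 libraries. SEs come from the F statistic. Alternatives used DESeq2 1.42.0, limma 3.58.1 on log2(TPM + 1) and log2(TPM + 0.1), other filters and scaling, a replicate block, chromosome medians removed, and each library left out. Chromosomes came from the RefSeq table and exon overlaps from GENCODE M21, both GRCm38, the assembly behind mm10. Replicates differed beyond sampling noise (chi-square per degree of freedom 2.96 to 24.1). The fits were run on simulated counts with a fixed dispersion (spread beyond counting noise) of 0.03. The simulation held no shifts shared by a chromosome or by same-numbered libraries. Of simulated 2-fold changes, 42.9% were recovered in footprints and 18.8% in translational efficiency. The members and lists were chosen with earlier results of these data known. Footprint values by library were given for the 2 or 3 members with the smallest p in each role group, the 3 such genes among other 40S assembly genes, and Mettl5; genes named for TPM or RNA-seq values were chosen after those were seen.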

Additional observations from a re-analysis of the deposited data

How the results depend on the processing

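A missed threshold does not show that a gene was unchanged. Of 39 genes, 36 to 38 were below 0 in footprints under every alternative other than leaving out WT replicate 1, which gave 31, and the median lay between -0.38 and -0.16 over the left-out libraries. Members called lower were 1 in the reported fit, 18 with the replicate block, 6 with no filter, 4 by DESeq2, 0 with chromosome medians removed, 0 to 4 with a library left out (a lone library is then assumed to vary like the others), and 0 when members on chromosomes 6, 8 and 11 were left out, an alternative chosen after seeing the data. The 18 blocked calls are set against 11.3% of all genes called lower with the block, and 9 of the 18 lie on those chromosomes and 9 elsewhere, Nop58, Wdr43, Krr1 and Riok2 among them. Deviations of same-numbered footprint libraries correlated by 0.433 over genes, and of RNA-seq libraries by 0.054; the tag they share may be a date, but no label ties a number to a day or culture, so the reported fit has no block. All genes called lower and higher in footprints were 76 and 225 in the reported fit, 1394 and 1566 with the block, 404 and 706 with no filter, 45 and 141 at a mean count of at least 50, and 24 to 278 and 133 to 483 with a library left out. All genes called higher were 121 under either limma setting, and all genes called lower were 126 by DESeq2 and 37 with chromosome medians removed. In RNA-seq (56 lower and 77 higher), 121 were higher with no filter, 33 higher at a mean count of at least 50, 25 lower and 31 higher by DESeq2, and 29 to 114 lower and 44 to 128 higher with a library left out. The RNA-seq member median was -0.78, against -0.51 for the 2 members at a mean count of at least 50, where 1 was called lower, and -0.99 to 0.26 with a library left out. Translational efficiency (66 lower and 69 higher) gave 38 higher with no filter, 7 lower and 10 higher at a mean count of at least 50, and 13 to 45 lower and 5 to 111 higher with a library left out, where the member median was -0.34 to 0.71 and 0 to 1 member was called lower; there the median of all genes was 0.11 with DESeq2 or its size factors, 0.13 with no filter and 0.17 to 0.31 with an RNA-seq library left out, and in RNA-seq it was -0.21 by DESeq2 and -0.14 with no filter. Signs changed with a library left out for Bysl (-0.55 to 0.02), Fbl (-0.21 to 0.06), Heatr1 (-0.25 to 0.14), Imp4 (-0.43 to 0.02), Noc4l (-0.12 to 0.25), Nop56 (-0.16 to 0.20) and Wdr36 (-0.15 to 0.03) in footprints, for Krr1 (-0.32 to 0.25) and Utp6 (-1.64 to 0.76) in RNA-seq, and for Krr1 (-0.54 to 0.15) and Utp6 (-1.18 to 1.19) in translational efficiency. With chromosome medians removed, Noc4l was at -0.01 and Nop56 at -0.02, and with no filter Krr1 was at 0.02 in RNA-seq. The cause of these changes was not tested. Of 507 footprint fold changes of single members under an alternative, 465 kept their direction and side of the threshold, 29 (in 17 members) newly passed it, 2 (both Bms1) no longer passed it and 11 (in 7 members) changed sign.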
